A study of Mus musculus with 5 samples.

Results

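The DRACH positions that lie far into the 3′ UTR of mRNAs were examined in mouse embryonic stem cells (mESCs). A position was a member if it was an adenosine at the centre of a DRACH motif (D is any base but C, R is a purine and H is any base but G) more than 400 transcript bases past the stop codon of a multi-exon protein-coding gene. Each gene was represented by 1 transcript, the RefSeq-linked APPRIS principal transcript of GENCODE M21 on mm10, on the strand of the call. This gave 9193 positions on 1057 genes, of 512355 deposited positions in all, or 1.79%. They made up 22.2% of the 41353 DRACH positions on a chosen transcript. All 9193 members lay on the last exon, at a median of 735 bases past the stop codon (up to 6204) and 486 bases before the annotated transcript end. Of them, 8379 (91.1%) were not coding, 5′ UTR or intronic in any annotated transcript, and another 30 positions that fell on 2 genes were left out. A gene held a median of 6 members, 126 genes held 1, and Scd2 held the most, with 62.

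N6-methyladenosine (m6A) is written on mRNA in the nucleus by a complex in which METTL3 is the catalytic subunit, METTL14 supports it in binding RNA and WTAP is a regulatory partner. The complex modifies adenosines within DRACH, and m6A is known to be dense around stop codons and in the 3′ UTR and sparse where exon junctions lie close by. YTH domain proteins read the mark and can shorten the life of the mRNA, and in mESCs this is known to act on transcripts of pluripotency factors. METTL5 is a separate enzyme, known for methylating 18S ribosomal RNA.

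The study measured m6A by nanopore direct RNA sequencing, in which every read gives each adenosine a call, and the level of a position is the percent of its valid calls that were m6A. Its METTL3 inhibition dataset held 1 library of cells treated with 30 μM STM2457, a METTL3 inhibitor, for 48 h and 1 library of cells given 0.025% v/v DMSO, and its Mettl5 dataset held 1 WT library and 1 library each of the knockout lines Mettl5KO_c1 and Mettl5KO_c2 (Mettl5-KO clones 1 and 2 below). By the study's methods, the DMSO and STM2457 cells were E14 mESCs that both carried a 2C and a Zscan4 fluorescent reporter, a doxycycline-driven APOBEC1-YTH construct that was not induced and a homozygous FKBP12 F36V tag on Mettl3, also not induced, although their label is WT. The Mettl5 cells came from an earlier study, each knockout library is 1 clone, and both clones are compared with the same WT library. All cells grew on gelatin in serum and LIF with 2i for maintenance, and the datasets were separate batches, so line, batch and run cannot be told apart between them.

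The METTL3 inhibition dataset covered 7899 members on 985 genes and the Mettl5 dataset 3683 members on 352 genes, of which 2389 were in both. Every deposited position has at least 25 valid calls in each library of its dataset, and the median coverage of the members was 55 calls in DMSO and 47 in STM2457, and the WT library, clone 1 and clone 2 had 47, 41 and 45. Between 4.64% and 4.98% of the calls at members failed the confidence filter and are not in the level. Neither Mettl3 nor Mettl5 had a deposited position (0 in both datasets), so neither target could serve as a check of the labels. Of 10 stem cell markers, 10 had deposited positions in the METTL3 inhibition dataset and 8 in the Mettl5 dataset, where Klf4 and Esrrb had none. In the METTL3 inhibition dataset Klf4 had only 2 positions, at a median of 25 calls in DMSO and 30.5 in STM2457. Markers of fibroblast feeders, primitive endoderm, early mesoderm and 2-cell-like cells (0 of 5, 0 of 5, 0 of 3 and 0 of 3 genes) had none in either dataset.

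Members with high levels among those well covered in all libraries are shown first, since the later results return to them. They are 7 of the 8 positions with the highest mean of the DMSO and WT levels among the 671 with at least 50 valid calls in all 5 libraries, with 1 position per gene. Each sequence is the 21-base window of the transcript, 5′ to 3′, with the DRACH motif in capitals and the called adenosine at its centre, on mm10.
Mrfap1, chr5:36795375-36795395, minus strand: catggctaGGACTgatgacct
Slc2a1, chr4:119136855-119136875, plus strand: ctaataccGAACTctgagcta
Tdgf1, chr9:110939818-110939838, minus strand: gccaacaaAGACTgaatggca
P4hb, chr11:120560385-120560405, minus strand: tcagccaaGGACActggggct
Polr2m, chr9:71478942-71478962, minus strand: gcctgcatGGACAtgttcctg
Eif1, chr11:100321825-100321845, plus strand: gaagtcatGGACAtttagttc
G3bp2, chr5:92054117-92054137, minus strand: ccttaacaAGACTgcaaatac

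The next 6 are the members that kept most of their level after STM2457, among the 153 at 50% or more in DMSO with at least 50 valid calls in both libraries.
Gfer, chr17:24693382-24693402, minus strand: gcctacaaGAACTgtgatcct
Mesd, chr7:83898977-83898997, plus strand: atttttaaGAACTcacattct
Smyd5, chr6:85445775-85445795, plus strand: ctgcaaaaAGACTctgccagg
Chmp1a, chr8:123205253-123205273, minus strand: gttcctgtGGACTttgtgtac
Ranbp3, chr17:56711562-56711582, plus strand: ctacccgtGGACTgtgtggtt
Mak16, chr8:31159781-31159801, minus strand: aagatgagAGACTgcatggcc

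Most distal DRACH adenosines were little methylated, and a minority was methylated on most reads. In DMSO the mean level over members was 8.66% (SD over positions 17.7) and the median 1.5%, with 41.5% of members at 0. A level of 25% or more was reached by 876 members (11.1%) in DMSO, and 140 were at 80% or more. WT had a mean of 4.91%, clone 1 of 5.20% and clone 2 of 5.28%, and 191, 202 and 205 of their members reached 25%. In STM2457 the mean was 2.07% and 132 members (1.67%) reached 25%. The datasets cover different positions. Over the 2389 members in both, the means were 6.53% in DMSO, 1.48% in STM2457, 5.13% in WT, 5.58% in clone 1 and 5.67% in clone 2. Across these members, which share their motifs, the Pearson r between DMSO and WT levels was 0.953 and the Spearman rho was 0.689.

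The levels of these members in the untreated libraries ranged from near saturation to about equal shares of m6A and other calls. At the Mrfap1 position, 573 bases past the stop codon on a transcript for a protein that binds a chromatin-modifying complex subunit, the level was 92.9% in DMSO (95% interval 88.9 to 95.8, 240 calls), 93.8% in WT (86.0 to 97.9), 91.0% in clone 1 (84.4 to 95.4) and 89.2% in clone 2 (83.5 to 93.5). It was 31.6% in STM2457 (25.6 to 38.0, 228 calls), so the treated library stood apart from the other 4, whose intervals overlap. Intervals are exact binomial and cover counting error only.

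The Slc2a1 position at 419 bases past the stop codon, on the mRNA of the glucose transporter GLUT1, was at 91.9% in DMSO, 42.1% in STM2457, 87.7% in WT, 90.9% in clone 1 and 90.1% in clone 2. On Tdgf1, the mRNA of the Nodal co-receptor Cripto, the position was at 83.3%, 25.2%, 79.1%, 85.6% and 84.8% in the same order. At both, the intervals of the 4 libraries without inhibitor overlapped, and STM2457 lay below all of them.

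P4hb, which encodes protein disulfide isomerase, carried 74.8% in DMSO (70.3 to 79.0, 405 calls), 16.6% in STM2457, 56.3% in WT (48 to 64.3), 72.4% in clone 1 and 68.4% in clone 2. Its DMSO and WT intervals do not overlap. Polr2m, for a protein associated with RNA polymerase II, was at 66.7%, 20.3%, 61.4%, 67.6% and 68.2%. Eif1, which encodes a factor for start codon selection, was at 48.6%, 7.91%, 46.2%, 42.1% and 43.1%, and G3bp2, a stress granule protein gene, at 51.9%, 12.4%, 41.0%, 58.1% and 61.4%. In all 7 genes the STM2457 library was the lowest of the 5.

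**Figure D1:**
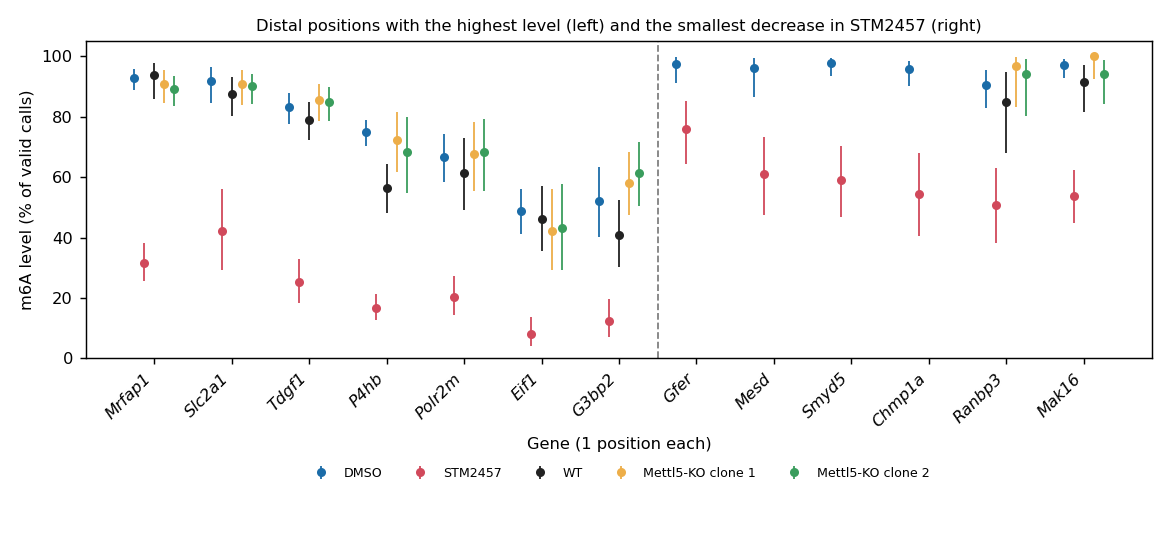
m6A level (percent of valid calls, vertical axis) at 1 position per gene, for 7 of the 8 positions with the highest level left of the dashed line and the 6 with the smallest decrease in STM2457 right of it; points are libraries and bars exact 95% binomial intervals. Positions without WT and clone points were not covered in the Mettl5 dataset, and STM2457 is the lowest library at each gene, from 7.91% (Eif1) to 76.1% (Gfer).

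Distal members carried less m6A than the DRACH positions nearer to the stop codon. Positions up to 400 bases past it had a mean of 17.1% in DMSO, 4.14% in STM2457, 11.5% in WT, 12.5% in clone 1 and 12.5% in clone 2. Compared with these, the distal mean was lower by 8.47 percentage points in DMSO, 2.07 in STM2457, 6.61 in WT, 7.28 in clone 1 and 7.27 in clone 2. An exact sign-flip permutation test over the 5 libraries, two-sided, gave a mean difference of -6.34 points with p = 0.0625, which is the smallest p that 5 libraries can give. Against the coding part of the last exon (13.1% in DMSO, 3.16% in STM2457, 8.57% in WT), the difference was negative in 5 of 5 libraries, from -4.40 to -1.10 points, with a mean of -3.41 and again p = 0.0625 in the exact permutation test. This difference depended on the weight of well covered positions. It was -1.51 points with the calls of all positions pooled, where distal members stood at 7.40% and last-exon coding at 8.59% in DMSO, and -2.32 with at least 50 calls per library. The difference to near-stop positions was -5.64 and -5.33 points in the same settings. The libraries share positions, and the median coverage in DMSO was 65 calls near the stop codon, 64 in the last-exon coding sequence and 55 at distal members.

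The level fell with distance over most of the range, without a step at 400 bases. Just outside the limit, at 351 to 400 bases, the mean was 12.7% in DMSO and 6.44% in WT, and just inside, at 401 to 450 bases, it was 11.5% and 7.14%. In DMSO it was 10.7% at 401 to 600 bases, 8.58% at 601 to 800, 7.28% at 801 to 1200, 6.26% at 1201 to 1600 and 6.33% beyond. The last 2 of these classes differed little. In WT the fall was not continuous, with 4.84% at 601 to 700 bases and 5.68% at 701 to 800. The WT mean was 3.58% at 1201 to 1600 bases and 4.24% at 1601 to 2400.

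**Figure D2:**
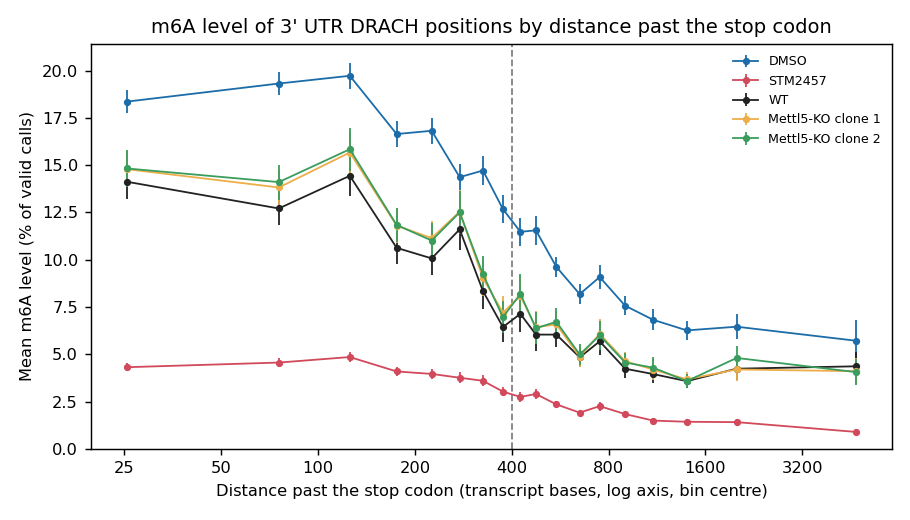
Mean m6A level (percent of valid calls) of 3′ UTR DRACH positions by distance past the stop codon (transcript bases, log axis, bin centres), 1 line per library, with bars of 1 SE over positions and a dashed line at 400 bases. Left of the line DMSO starts at 18.4% (1 to 50 bases), and just right of it DMSO is at 11.5%, with STM2457 the lowest line throughout.

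Levels also differed by distance to the annotated transcript end. Members within 50 bases of it had a mean of 3.14% in DMSO (662 positions) and 0.797% in WT (44 positions). The DMSO mean was 7.67% at 51 to 100 bases from the end, 9.87% at over 100 up to 150 and 12.3% at 151 to 200, then 10.01% at 201 to 400, 8.65% at 401 to 800, 9.17% at 801 to 1600 and 7.45% farther away. In WT the means of these last 7 classes were 3.77%, 8.20%, 8.26%, 5.49%, 4.64%, 4.16% and 4.99%. The highest class thus lay between 151 and 200 bases from the end in both untreated libraries, although in WT it differed from its neighbour by less than 1 SE. Reads start at the poly(A) tail, so a molecule that ends before a member gives no call there, and the annotated end need not be the end in use.

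**Figure D3:**
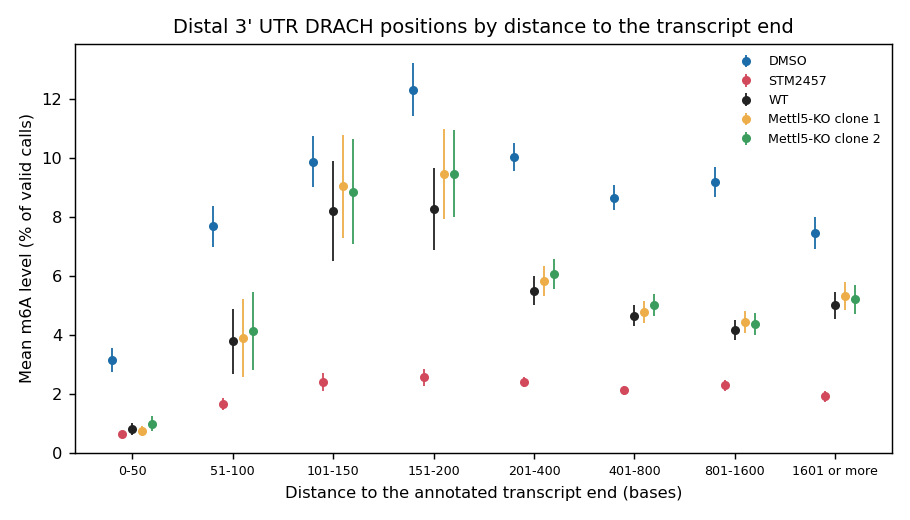
Mean m6A level (percent of valid calls) of the distal members by distance to the annotated transcript end (bases), 1 colour per library, with bars of 1 SE over positions. DMSO rises from 3.14% in the last 50 bases to 12.3% at 151 to 200 bases, and all 5 libraries have their lowest value in the last 50 bases.

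Members were also classed by both distances at once. Among members over 100 and up to 400 bases from the end, the DMSO mean was 13.4% at 401 to 600 bases past the stop codon, 9.66% at 601 to 1000 and 7.83% beyond, and the WT mean was 8.71%, 6.61% and 4.52%. Among members over 400 bases from the end, it was 10.01%, 8.12% and 6.83% in DMSO and 5.74%, 4.30% and 3.86% in WT. Within 100 bases of the end it was 7.30%, 4.90% and 3.0% in DMSO. In each of these groups the mean fell with distance from the stop codon. The 2 distances add up to the length of the 3′ UTR, so distance past the stop codon was not told apart from that length. By 3′ UTR length, the DMSO mean was 10.2% at 401 to 800 bases and 7.27% at 2401 bases or more. In WT it was 6.90% and 4.81%. The datasets differed in where their members lie, with 15.1% of members within 100 bases of the end in the METTL3 inhibition dataset and 3.34% in the Mettl5 dataset.

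Levels differed widely between motifs. In DMSO the mean was 38.2% at GGACT (409 members, SD 31.3), 22.7% at GAACT, 20.5% at GGACA, 18.5% at AGACT and 13.3% at GGACC. It was lowest at AAACC with 0.443%, and at TAACC it was 0.462%. The first 5 motifs made up 27.1% of the members and 690 (78.8%) of the 876 members at 25% or more. The same 5 were the highest in WT, with 22.8% at GGACT, 13.3% at GAACT, 12.2% at AGACT, 11.7% at GGACA and 6.92% at GGACC. In STM2457 GGACT was at 10.7% and no other motif was above 5.42%.

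The lower level of distal members was seen motif by motif. All 18 motifs had a lower mean at distal than at near-stop positions in DMSO, STM2457, WT and clone 1, and 17 of 18 did in clone 2. The median ratio of the distal to the near-stop mean was 0.541 in DMSO, 0.614 in STM2457, 0.469 in WT, 0.469 in clone 1 and 0.462 in clone 2. GGACT alone had a mean of 62.0% within 200 bases of the stop codon in DMSO, 52.4% at 201 to 400, 47.1% at 401 to 600, 35.9% at 601 to 1000 and 28.5% beyond. In WT these means were 52.6%, 41.7%, 34.2%, 20.6% and 16.6%. GGACT members also differed among themselves, with 56 of 409 (13.7%) below 5% in DMSO and 67 (16.4%) at 80% or more, and with quartiles of 10.2% and 65.4%.

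Within single genes the order was mostly the same. Of 446 genes with at least 5 distal and 5 near-stop positions, the distal mean was lower in 342 (76.7%) in DMSO and in 326 in STM2457. Of 168 such genes in the Mettl5 dataset, it was lower in 123 in WT, 128 in clone 1 and 127 in clone 2. Among the 119 genes that qualified in both datasets, 67 had the lower distal mean in all 5 libraries and 21 the higher one. The genes of this last kind named here were chosen after their values were seen. Tardbp, which encodes the RNA-binding protein TDP-43, had a distal mean of 33.3% over 14 members in DMSO, against 6.99% over 6 near-stop positions. Its values in WT were 27.3% and 2.56%, and in STM2457 12.4% and 0.794%. All 14 Tardbp members and all 11 Tmem234 members are coding, 5′ UTR or intronic in another annotated transcript, as are 3 of 9 on P4hb and 0 of 23 on Mrfap1. Tmem234, P4hb and Mrfap1 followed, with distal means of 22.6%, 20.8% and 12.4% and near-stop means of 2.17%, 2.46% and 1.34% in DMSO.

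Highly methylated members lay close together on some mRNAs. The 876 members at 25% or more in DMSO fell on 430 of 985 genes (43.7%), and 237 of these genes held 1. Another such member within 100 bases was present for 416 of the 876 (47.5%), against 2079 of all 7899 members (26.3%). The 7899 include the 876 and also members on genes that hold none at 25% or more. Closeness within an mRNA was therefore not tested apart from differences between genes. Neighbouring positions are read on the same molecules and are not independent. The genes with the most were Slc2a1, Glyr1, Chtf8, Dda1 and Vps26c, with 9 each.

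On Slc2a1, 9 of 16 members were at 25% or more in DMSO (25.9% to 94.3%), all between 404 and 809 bases past the stop codon. The highest lies 15 bases before the one shown above, at chr4:119136840-119136860 on the plus strand, and is printed because its window ends inside the other.
Slc2a1, 404 bases past the stop codon: atggccaaGGACAcactaata
It was at 94.3% in DMSO (88.1 to 97.9, 106 calls), 25.4% in STM2457 (15.5 to 37.5, 67 calls), 84.4% in WT, 93.0% in clone 1 and 93.6% in clone 2. At 717 bases another of the 9 was at 80%, 16.7%, 75.6%, 82.0% and 76.1%. Over all 16 members the mean was 33.6% in DMSO, 7.40% in STM2457, 28.9% in WT, 31.2% in clone 1 and 31.4% in clone 2.

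Glyr1, a nucleosome-binding protein gene, had its 9 between 429 and 1221 bases past the stop codon, at 26.7% to 86.8% in DMSO and 0% to 30.2% in STM2457. On Chtf8, for a subunit of an alternative replication clamp loader, they lay between 461 and 2260 bases, with a maximum of 89.1% in DMSO and 28.1% in STM2457, and 26 of its 45 members, the highest among them, have another annotation in some transcript. Dda1, for a component of a ubiquitin ligase complex, and Vps26c, for a subunit of an endosomal sorting complex, reached 84.6% and 90.9% in DMSO. The Dda1 maximum was 61.8% in STM2457 (43.6 to 77.8, 34 calls), and with 39 calls in DMSO it did not pass Fisher's exact test (adjusted p = 1). These 4 genes were not covered by members in the Mettl5 dataset.

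The mean level over distal members was lower in the STM2457 library than in the DMSO library, and no member had a call for a higher level. Fisher's exact test, two-sided, on the calls of each position, with Benjamini-Hochberg adjustment over all 471848 positions, called 768 of 7899 members (9.72%) lower at an adjusted p under 0.05. The background was 1.35% of all positions and 14.6% of DRACH positions, so the share of distal members called lay above that of all positions and below that of DRACH positions. Near the stop codon 2775 of 11682 (23.8%) were called lower, and in the last-exon coding sequence 1291 of 7028 (18.4%). For a higher level 0 members were called, against 0.00254% of all positions and 0% of DRACH positions. At an unadjusted p below 0.05, 1484 of 7899 members were lower and 2 higher. Of 11682 near-stop positions 4288 were lower and 4 higher, and of 7028 last-exon coding positions 2032 and 2. With 1 library per condition the test compares the libraries, not the conditions. As the RNA is from many cells, fewer methylated molecules in each cell and fewer cells with methylated molecules cannot be told apart.

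The relative decrease differed by a few percentage points between locations. The mean over members fell from 8.66% to 2.07%, a relative decrease of 76.1%. It was 75.8% near the stop codon, 75.8% in the last-exon coding sequence and 72.2% in internal coding exons. Among members it was 75.5% at 401 to 600 bases past the stop codon, 75.9% at 601 to 800, 76.6% at 801 to 1200, 77.2% at 1201 to 1600 and 79.2% beyond. By distance to the end it went from 80.2% in the last 50 bases to 74.4% beyond 1600 bases. No test of these differences was run, since each rests on 1 pair of libraries.

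Among the 876 members at 25% or more in DMSO, all 876 were below their DMSO level in STM2457 and 622 (71.0%) were called. Their median relative decrease was 79.9%, with quartiles of 70.2% and 88.4%. In STM2457, 132 (15.1%) still reached 25%, 65 were at 0, and 47 had lost less than 50% of their level, 6 of them less than 25%. No member reached 25% in STM2457 alone. These counts rest on members chosen by the DMSO level, which itself has counting error.

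**Figure D4:**
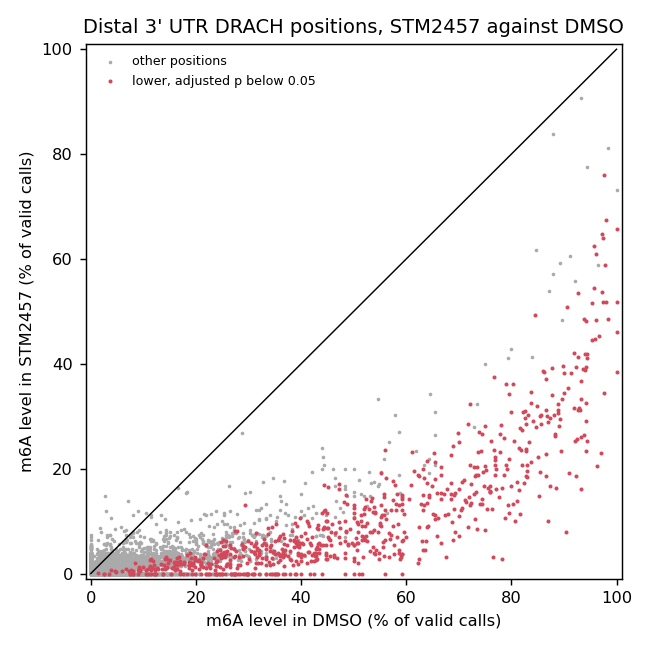
m6A level in STM2457 against DMSO (both in percent of valid calls) for the 7899 distal members, with the line of equal levels. The 768 members in red passed Fisher's exact test as lower (adjusted p under 0.05), and all members above 50% in DMSO lie below the line.

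When members were classed by the WT level of the other dataset, which the comparison does not use, the decrease was also present. The 132 members at 25% or more in WT, on 78 genes, had a mean of 56.8% in DMSO and 14.8% in STM2457. All 132 were lower in STM2457 and 122 (92.4%) were called. The relative decrease was 72.0% below 5% in WT (1882 members), 85.1% at 5% to 10% (185 members) and 84.9% at 10% to 25% (190 members). It was 82.3% at 25% to 50% in WT (83 members), 72.7% at 50% to 80% (34 members) and 54.4% at 80% or more (15 members, 92.1% in DMSO and 42.0% in STM2457). Of these 15, 14 still reached 25% in STM2457, against 9 of the 34 and 0 of the 83.

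Among members at 50% or more in DMSO with at least 50 calls in both libraries, the 6 with the smallest relative decrease, 1 per gene, were at 90.5% to 97.7% in DMSO. They were selected by that decrease, so their values are a description. Gfer, which encodes a sulfhydryl oxidase of the mitochondrial intermembrane space, went from 97.5% (91.4 to 99.7, 81 calls) to 76.1% (64.5 to 85.4, 71 calls), a relative decrease of 22.0%. Mesd, for a chaperone of lipoprotein receptors, went from 96.1% to 61.0%, and Smyd5, for a SET domain methyltransferase, from 97.7% to 58.9%. Chmp1a, an ESCRT-III subunit gene, went from 95.7% to 54.5%. Ranbp3, for a nuclear export cofactor, went from 90.5% to 50.7%, and Mak16, for a ribosome biogenesis factor, from 97.1% to 53.8%. Ranbp3 and Mak16 were also covered in the Mettl5 dataset, at 84.8% and 91.7% in WT, 96.8% and 100% in clone 1 and 94.1% and 94.3% in clone 2. In all 6 the intervals of DMSO and STM2457 do not overlap, and the adjusted p of Gfer was the largest at 0.00852.

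Members were also counted by gene group, and the counts below, for which no test of the difference was run, stand beside 11.1% of all members at 25% or more and 9.72% called lower. Except on Ythdf1 and Hmgn1, the positions named by group were the highest in DMSO on their gene. The genes were picked by their count of members at 25% or more in DMSO. The falls and p-values of these positions are therefore a description. Of 132 members on pluripotency genes, 9 (6.82%) were at 25% or more in DMSO and 11 (8.33%) were called lower. Beside Tdgf1, the Nodal position at 628 bases past the stop codon, on the mRNA of the TGF-beta family ligand, fell from 52.2% to 6.38% (Fisher's exact test, adjusted p = 2.64e-05). The Esrrb position at 2161 bases, on the mRNA of an orphan nuclear receptor of naive stem cells, fell from 48.1% to 13.6% (exact test, adjusted p = 8.95e-06). Of 39 members on m6A writer, reader and eraser genes, 1 was at 25% or more. This was on Fto, the demethylase, with 44.4% in DMSO and 20.7% in STM2457 (exact test, adjusted p = 1 at 36 and 29 calls), and the 1 member of the group called lower was on Ythdf1, an m6A reader. That position, named after its value was seen, was at 18.4% in DMSO and at 0 of 62 calls in STM2457, for which the exact interval reaches 5.78% (exact test, adjusted p = 0.0315).

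RNA-binding protein genes held 290 members, of which 21 (7.24%) were at 25% or more and 25 were called lower. Tardbp reached 95.7% in DMSO, 62.5% in STM2457, 88.7% in WT, 89.1% in clone 1 and 90.8% in clone 2 at 792 bases past the stop codon, a position that another annotated transcript holds as coding, 5′ UTR or intron, like all 14 Tardbp members. Srsf2 and Srsf4, which encode SR splicing factors, fell from 47.1% to 7.06% and from 98.0% to 67.5%. Chromatin genes held 86 members with 3 at 25% or more and 5 called lower. They included Rad21, a cohesin subunit gene, with a fall from 44.4% to 11.9% and an exact-test adjusted p of 0.0497, and Mbd3, of the NuRD complex, which fell from 33.0% to 5.85% at 21 bases from the transcript end and held a further called member. The other 2 called were on Hmgn1, a nucleosome-binding protein gene named after its values were seen, with falls from 17.2% to 1.74% and from 8.10% to 0.571%.

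Cell cycle genes held 131 members, with 12 (9.16%) at 25% or more and 12 called lower. Rcc1, the exchange factor of Ran, fell from 52.5% to 9.62%, the kinase gene Cdk2 from 51.4% to 11.1%, and the CDK inhibitor gene Cdkn1a from 47.4% to 8.75%. Metabolic genes held 298 members, with 29 (9.73%) at 25% or more and 38 (12.8%) called lower. Besides Slc2a1 they included the amino acid transporter gene Slc7a5, with 94.4% in DMSO, 41.1% in STM2457, 80.6% in WT, 97.5% in clone 1 and 90% in clone 2. Fasn, for fatty acid synthase, fell from 87.3% to 29.7%.

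Translation factor genes held 102 members, with 10 (9.80%) at 25% or more and 13 (12.7%) called lower. Abcf1, for an ATPase that acts with initiation factor eIF2, was at 95.3% in DMSO, 51.5% in STM2457, 96.9% in WT, 97.5% in clone 1 and 97.2% in clone 2. Etf1, which encodes the release factor eRF1, was at 64.9%, 16.7%, 60.3%, 61.7% and 70.0%. Cytosolic ribosomal protein genes, whose 3′ UTRs are mostly short, had members on 6 of 28 genes, and of these 43 members 1 was at 25% or more, on Rps3 (31.1% in DMSO and 4.08% in STM2457, exact test, adjusted p = 0.0467). In no group was a member called higher.

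No distal member passed the per-position test in the Mettl5-KO clones. By Fisher's exact test with adjustment over 195787 positions, 0 of 3683 members were called lower and 0 higher in both clones, against a background of 0.00204% of all positions lower and 0% higher, and 0% of DRACH positions in either direction. Each clone on its own gave 0 calls at members, beside 0.00204% lower and 0% higher over all positions in clone 1 and 0.00306% lower and 0.00358% higher in clone 2. At an unadjusted p below 0.05, clone 1 had 12 lower and 30 higher of 3683 members and clone 2 had 14 and 34. Clone 2 against clone 1 had 19 lower and 15 higher. Of 3873 near-stop positions, 16 were lower and 48 higher in clone 1, and 19 and 68 in clone 2. Of 2354 last-exon coding positions, 6 and 28 were in clone 1 and 10 and 39 in clone 2. More higher than lower positions were thus not particular to distal members. Between the clones 0 members passed the adjusted test, beside 0% of all positions lower and 0.00153% higher in clone 2. With a median of 41 to 47 calls a position and adjustment over 195787 positions, changes at a single position could go uncalled, and not only small ones. Calr, for instance, was at 15.3% in WT (196 calls) and 30.5% in clone 1 (154 calls) without a call.

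The members nearest to a call, named because none passed, were Calr, Ptbp1 and Caprin1 for a higher and Cdh1, Lin28a and Jarid2 for a lower level, and all 6 had an adjusted p of 1 in both clones. Calr, which encodes an endoplasmic reticulum chaperone, was at 15.3% in WT (10.6 to 21.1, 196 calls), 30.5% in clone 1 (23.4 to 38.4) and 30.4% in clone 2 (22.0 to 39.8), and at 30.1% in DMSO (26.8 to 33.6, 724 calls). Its WT level lay below those of the 2 clones, which the choice of this position required, and below that of DMSO. Members at 25% to 50% in DMSO also had a lower mean in WT (34.8% in DMSO and 24.3% in WT), but the DMSO level formed this class. Members at 25% to 50% in WT had a mean of 34.8% in WT and 44.0% in DMSO. Ptbp1, a splicing repressor gene, was at 8.33% in WT, 19.8% in clone 1, 19.0% in clone 2 and 24.7% in DMSO. Caprin1, a stress granule protein gene, was at 11.5%, 24.7%, 28.3% and 25.4% in the same order. In the other direction, the E-cadherin gene Cdh1 was at 20.4% in WT, 5.81% in clone 1, 7.95% in clone 2 and 15.2% in DMSO. Lin28a, for an RNA-binding regulator of let-7, and Jarid2, for a partner of Polycomb complex 2, were at 11.4% and 12.5% in WT and at 0 in both clones, where the exact intervals reach 8.81% and 5.36% for Lin28a and 10.9% and 8.04% for Jarid2.

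Classed by the DMSO level of the other dataset, the members with high levels had a higher mean in each clone than in WT. The 79 members at 50% or more in DMSO, on 50 genes, had a mean of 58.1% in WT, 63.4% in clone 1 and 64.5% in clone 2. From WT they differed by 5.27 points (SD over positions 9.37) and 6.35 points (SD 9.99), and clone 2 minus clone 1 was 1.08 points (SD 8.99). For the 108 members at 25% to 50% the means were 24.3%, 26.5% and 27.5%, and below 5% they were 1.07%, 1.15% and 1.15%. Near-stop positions at 50% or more in DMSO, which are not members, differed from WT by 4.22 points in clone 1 and 3.84 in clone 2. Last-exon coding positions of this class differed by 2.46 and 3.98 points. Both clones share 1 WT library, so WT as a whole and the genotype cannot be told apart, and 2 clones against 1 library allow no test at the level of libraries.

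**Figure D5:**
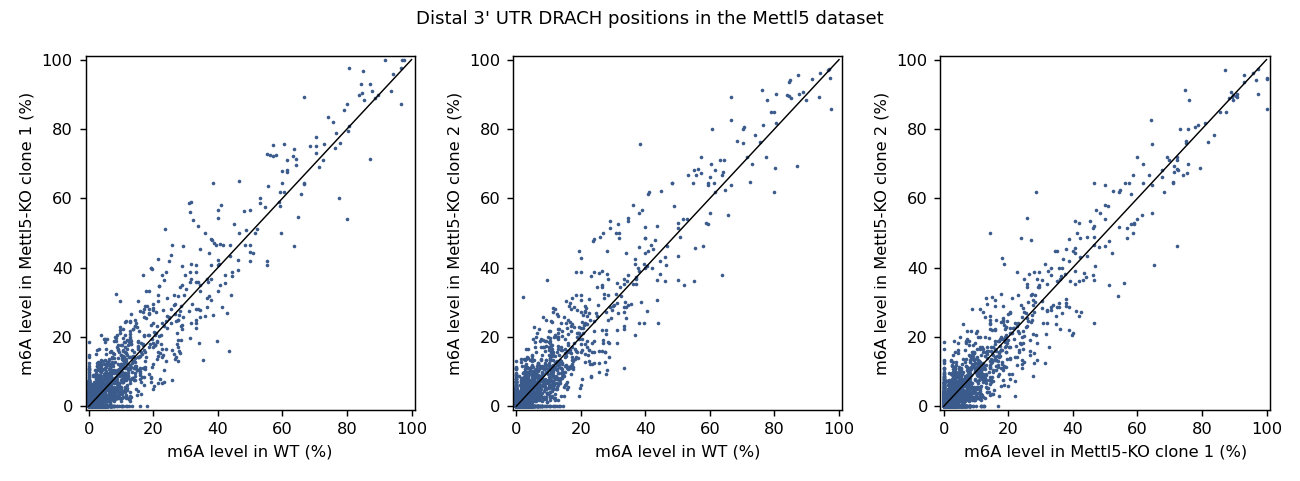
m6A level (percent of valid calls on both axes) of the 3683 distal members in clone 1 against WT, clone 2 against WT and clone 2 against clone 1, with the line of equal levels. Points scatter around the line in all 3 panels, with Pearson correlations across members of 0.948, 0.947 and 0.954, and no point passed an adjusted p of 0.05.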

How the data were processed

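Direct RNA libraries of mESCs were compared within their dataset, STM2457 with DMSO and both Mettl5-KO clones with WT. The authors used WarpDemuX for demultiplexing and dorado for base calling, modification calling and mm10 alignment. They deposited modkit pileup counts for each position and strand (valid, m6A, unmodified, other and failed calls), which are not normalized. The percent column they deposited divides the m6A count by the valid count. Failed calls are left out of it, and sequencing from the poly(A) tail favours positions near the transcript end. The deposited positions include ones outside exons. Total valid calls were 71574467 for DMSO, 54051900 for STM2457, 22025887 for WT, 17897440 for clone 1 and 19532075 for clone 2.

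Levels were recomputed from the counts and averaged over positions with equal weight. Transcripts and the 21-base sequences were those of GENCODE M21, in which 99.9% of positions were an A. Per-position tests were two-sided Fisher's exact tests of m6A against other valid calls, Benjamini-Hochberg adjusted over all positions of a dataset, with a threshold of 0.05 (Python 3.11.15, numpy 2.4.6, pandas 2.3.3, scipy 1.17.1, numba 0.67.0, matplotlib 3.10.9). They were checked on simulated data. Differences between groups of positions used the exact sign-flip permutation test over the 5 libraries. Intervals are exact binomial 95% intervals (Clopper-Pearson) and cover counting error only.

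Named positions were the 8 with the highest mean of DMSO and WT with at least 50 calls in all libraries (1 of them is not reported here), the 6 with the smallest relative decrease among those at 50% or more in DMSO, the members called in both clones or else the 3 nearest in each direction, the 3 highest on the 5 genes with the most members at 25% or more, and the highest on up to 3 genes per list. The lists were pluripotency, m6A machinery, RNA-binding protein, chromatin, cell cycle, metabolism, translation factor and cytosolic ribosomal protein genes. Members, lists and rules were chosen with earlier results of these data known. Alternatives were a minimum of 50 calls, failed calls counted as unmodified, a limit of 800 bases, members with no other annotation, pooled calls, members at 10% or more, other adjustments and thinning to equal coverage. Chosen after seeing the data were members in both datasets and equal weight of the 18 motifs.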

Additional observations from a re-analysis of the deposited data

How the results depend on the processing

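The direction of each comparison was kept under all alternatives run. The mean level of the members, in the order DMSO, STM2457, WT, clone 1 and clone 2, moved to 8.28%, 1.98%, 4.70%, 4.99% and 5.04% with failed calls counted as unmodified, to 6.87%, 1.57%, 4.02%, 4.18% and 4.27% beyond 800 bases, and to 7.40%, 1.76%, 4.41%, 4.96% and 5.14% with calls pooled. At members of 10% or more in DMSO (for DMSO and STM2457) or in WT (for WT and the clones) it was 35.2%, 8.16%, 28.2%, 28.4% and 28.7%. These members were chosen by a library that is compared, so these values are only a description. At members in both datasets (chosen after seeing the data) it was 6.53%, 1.48%, 5.13%, 5.58% and 5.67%. A minimum of 50 calls gave 8.05% in DMSO, 1.87% in STM2457, 4.81% in WT and 5.15% in clone 2. Members with no other annotation gave 4.76%, 5.10% and 5.16% in WT and the clones, and equal weight of the motifs (also chosen after seeing the data) 5.09%, 5.40% and 5.47%. Members lower in STM2457 were 472 of 3302 with 50 calls and 225 of 3158 beyond 800 bases, where fewer members were tested, 651 after thinning and 1131 with adjustment over DRACH positions. Clone calls stayed at 0. Leaving out 1 library at a time, the mean difference to near-stop positions ranged from -7.41 to -5.81 points and that to last-exon coding from -3.99 to -3.16. The latter was -1.51 with calls pooled, -2.32 with 50 calls, -2.56 at members in both datasets and -6.84 at 10% or more. Of the named positions, Gfer, Rad21 and Rps3 lost their call with failed calls counted as unmodified, and Srsf4, Rad21, Cdk2 and Rps3 with thinning. Calls were gained in 8 instances on Dda1 and Vps26c. Of these, 4 came with adjustment over exonic positions at 25% or more in at least 1 library. That filter uses the levels compared, so these 4 are no further support for a decrease. No paired analysis was possible because each condition has 1 library and only the Mettl5-KO group has 2. Coverage of 25 calls limits single positions.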
